A study of Rattus norvegicus with 12 samples.

Results

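Transcripts of 10 genes of the Hippo pathway and its output were followed in H9C2 cells. The genes were the coactivators Yap1 and Wwtr1 (the gene for TAZ), the DNA-binding factor Tead1, and the target or feedback genes Ccn1, Ccn2, Ankrd1, Amotl2, Lats2, Ajuba and Axl. They were taken by gene symbol from the deposited table, and all 10 were present among its 16002 gene IDs and passed the filter on low counts. H9C2 is an established rat line that the labels call a cardiomyoblast of the heart. The LITAF group was transduced with a lentiviral vector overexpressing LITAF and then kept at 1% oxygen for 8 h and at normal oxygen for 2 h. The H/R (hypoxia/reoxygenation) group had an empty lentiviral vector and the same 8 h and 2 h. The control group stayed at normal oxygen and received no vector, so a comparison with it joins H/R and the vector. Each group had 4 libraries of poly(A)-selected RNA. The labels call them biological replicates of 1 batch without naming separate cultures, so the p-values given here speak only of the spread among libraries, which may be technical.

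In the Hippo pathway, the kinases MST1 and MST2 activate LATS1 and LATS2, which phosphorylate YAP and TAZ and so keep them out of the nucleus. Unphosphorylated YAP and TAZ enter the nucleus, bind TEAD factors and switch on genes of growth, matrix and adhesion. Phosphorylation controls much of this, so the mRNA level of Yap1 or Wwtr1 is not a measure of the activity of either protein. In heart muscle the pathway is known for limiting cardiomyocyte growth.

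The core of a TEAD binding motif is GGAATG. It was searched on both strands, as GGAATG or CATTCC, in RefSeq promoters (rat build GRCr8, 250 bases before to 50 after each gene's start), which held entries for 7 of the 10 genes. Ankrd1, Lats2 and Tead1 had no entry. The 4 target genes with a match are shown, with the matches in capitals, because Ccn2 carried 3 copies and the others 1 each. The Ccn1 promoter is chr2:237225640-237225939 (minus strand), that of Ccn2 chr1:22624565-22624864 (minus strand), that of Amotl2 chr8:112182376-112182675 (plus strand) and that of Ajuba chr15:31999993-32000292 (minus strand).
Ccn1: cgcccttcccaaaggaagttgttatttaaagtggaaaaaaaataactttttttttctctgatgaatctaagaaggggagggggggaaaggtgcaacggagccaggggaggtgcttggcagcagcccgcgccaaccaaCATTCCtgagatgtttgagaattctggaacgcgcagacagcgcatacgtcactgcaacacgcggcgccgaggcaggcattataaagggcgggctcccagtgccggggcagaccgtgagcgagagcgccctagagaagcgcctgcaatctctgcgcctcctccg
Ccn2: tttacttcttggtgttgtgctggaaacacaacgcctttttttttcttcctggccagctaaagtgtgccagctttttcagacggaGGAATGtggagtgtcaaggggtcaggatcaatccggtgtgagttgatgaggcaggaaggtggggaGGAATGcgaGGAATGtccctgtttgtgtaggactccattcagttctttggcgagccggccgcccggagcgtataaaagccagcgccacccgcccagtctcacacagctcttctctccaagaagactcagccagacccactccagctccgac
Amotl2: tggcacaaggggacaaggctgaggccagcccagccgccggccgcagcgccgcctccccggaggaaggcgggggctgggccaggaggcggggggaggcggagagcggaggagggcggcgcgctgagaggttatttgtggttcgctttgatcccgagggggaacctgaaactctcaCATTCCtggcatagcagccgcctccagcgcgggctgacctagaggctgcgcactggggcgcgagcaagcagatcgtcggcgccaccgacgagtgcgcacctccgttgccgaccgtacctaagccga
Ajuba: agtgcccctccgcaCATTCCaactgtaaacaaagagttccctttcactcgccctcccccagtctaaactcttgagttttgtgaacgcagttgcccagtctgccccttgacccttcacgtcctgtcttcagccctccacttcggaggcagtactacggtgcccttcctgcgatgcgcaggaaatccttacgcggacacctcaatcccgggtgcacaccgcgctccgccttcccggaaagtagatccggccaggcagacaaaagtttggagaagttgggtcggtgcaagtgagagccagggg

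The Ccn2 promoter held 3 copies, which began 166, 101 and 92 bases before the start, all on the gene's own strand. Ccn1 had 1 copy, on the other strand, 113 to 108 bases before the start. Amotl2 had 1 copy on the other strand, 76 to 71 bases before the start, and Ajuba 1 on the other strand, 236 to 231 bases before it. Yap1 also had 1 copy, 116 to 111 bases before its start. The windows of Axl and Wwtr1 held none. Of 33469 rat promoters of the same length, 14.2% held at least 1 copy and 0.0956% at least 3. The AP-1 motif TGANTCA, searched on both strands, was in none of the 7 windows and in 7.33% of all promoters. A match is a string of letters and not a measured binding site.

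Totals per library were 17.2 to 18.4 M reads for LITAF, 16.9 to 18.1 M for H/R and 19.2 to 20.7 M for control. Litaf itself stood at 2691, 2008, 2532 and 2120 CPM in the LITAF libraries, at 549, 619, 573 and 598 CPM in the H/R libraries and at 459, 485, 491 and 456 CPM in the control libraries. CPM are reads per M reads after TMM scaling, and libraries are listed in the order of their numbers, 1 to 4. All LITAF libraries were above all others, 4.00-fold against H/R (log2 2.00 ± 0.10, SE), with a quasi-likelihood adjusted p = 1.38e-08 in edgeR, and libraries 1 and 3 were the highest. Of the muscle markers checked, the heart factor genes Nkx2-5 and Gata4 were detected in every group, while Myh6 and Ryr2 of adult heart muscle stayed under 1 CPM in all libraries. Myod1 was higher than Nkx2-5 and Gata4 in every group, with means of 99.8, 88.0 and 258 CPM in the LITAF, H/R and control groups. The summed CPM of 10 muscle markers ran from 307 to 380 in the LITAF group, 211 to 223 in the H/R group and 1820 to 6269 in the control group. Myog was the largest part of the control sum, at 1257 to 5730 CPM in control libraries. Tnnt2 stood at 168 to 404 CPM in control libraries and 42.9 to 78.9 CPM in H/R libraries. Myod1 stood at 185 to 350 CPM in control libraries and 75.7 to 112 CPM in H/R libraries. Gata4 was higher in control libraries too, while Des and Nkx2-5 were higher in H/R libraries than in control libraries. The summed CPM of 6 fibroblast markers ran from 26460 to 34632, 22688 to 25779 and 53314 to 70593 in the LITAF, H/R and control groups, with Dcn at 0 in every library. Nearly all of that sum was Col1a1 and Col1a2. Endothelial markers (3 genes) summed to at most 0.168 CPM and macrophage markers (2 genes found) to at most 0.518 CPM in any library.

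LITAF against H/R asks what LITAF does to these genes in cells that had H/R, and both groups carried a vector. Of the 10 genes, the 2 of the CCN family rose. Ccn1, which codes for a secreted matricellular protein of cell adhesion, rose 3.03-fold. Ccn2, the gene of connective tissue growth factor, rose 1.46-fold. The other 8 genes did not pass the test, among them the coactivators Yap1 and Wwtr1 and the factor Tead1. Of all 11398 genes tested, 4.88% passed, 3.73% higher and 1.15% lower. CPM did not overlap between the groups for 5 of the 10 genes, against 18.9% of all genes tested. Of the 7 muscle markers tested, 2 also rose (Tnnt2 and Actc1), with a median change of log2 0.23. Actc1 was low, with means of 4.78 and 0.687 CPM in the LITAF and H/R groups. None of the 4 fibroblast markers tested passed, with a median change of log2 0.21. The part of either marker list in this result was not tested.

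**Figure D1:**
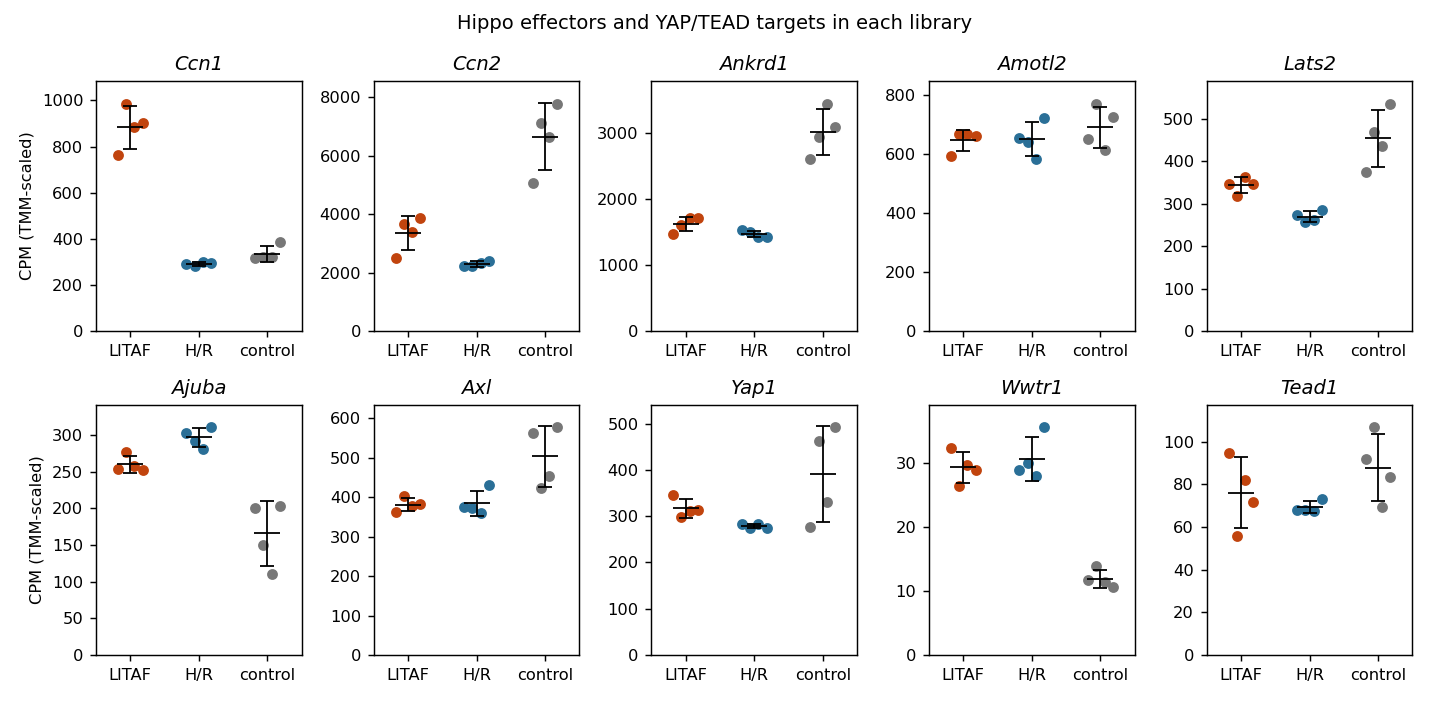
TMM-scaled CPM of each gene in every library, by group, with 1 point per library (left to right, numbers 1 to 4) and bars for the mean and SD of 4 libraries. Ccn1 sits between 762 and 986 CPM in the LITAF libraries, above all H/R and control libraries, while Ccn2 is highest in the control libraries.

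Ccn1 (ENSRNOG00000014350) stood at 762, 986, 883 and 904 CPM in the LITAF libraries and at 293, 281, 298 and 294 CPM in the H/R libraries. Every LITAF library was above every H/R library, and the lowest LITAF value was that of library 1. The change was log2 1.60 ± 0.10 (SE, 95% interval 1.38 to 1.81), with an edgeR quasi-likelihood adjusted p = 9.96e-08. By size of change Ccn1 ranked 49 among the genes tested.

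Ccn2 (ENSRNOG00000015036) stood at 2511, 3653, 3402 and 3856 CPM in the LITAF libraries and at 2233, 2219, 2328 and 2415 CPM in the H/R libraries. The groups did not overlap, but LITAF library 1 lay just above the highest H/R library and the other LITAF libraries far above it. The change was log2 0.55 ± 0.14 (95% interval 0.25 to 0.84), adjusted p = 0.0307 by edgeR's test. It did not pass when any 1 of the H/R libraries or LITAF library 2, 3 or 4 was left out, with adjusted p between 0.0594 and 0.124. Without LITAF library 1 it was log2 0.68, adjusted p = 0.00247. With library totals alone in place of TMM it just missed the threshold, at adjusted p = 0.0504.

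Ankrd1 (ENSRNOG00000018598), which codes for a cardiac ankyrin repeat protein of the sarcomere and nucleus, stood at 1475, 1608, 1709 and 1708 CPM in the LITAF libraries. Its H/R libraries had 1529, 1497, 1431 and 1427 CPM. The groups overlapped through LITAF library 1, and the change of log2 0.14 ± 0.10 (95% interval -0.06 to 0.35) did not pass, at adjusted p = 0.435 by edgeR's test.

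The counts also allow these genes to be set against each other within a library, which does not depend on library scaling. The log2 ratio of Ccn1 to Ccn2 counts averaged -1.91 ± 0.15 in the LITAF group and -2.98 ± 0.05 in the H/R group (SD, n = 4 per group), a difference of 1.06, or 2.09-fold. That of Ankrd1 to Ccn2 averaged -1.03 ± 0.20 in the LITAF group and -0.64 ± 0.10 in the H/R group, a difference of -0.39. In both ratios the groups did not overlap, for Ankrd1 to Ccn2 only just, with LITAF library 1 at -0.77 and H/R library 4 at -0.76. Each difference had p = 0.0286 by a two-sided exact permutation test of 4 against 4 libraries, the smallest p that design allows. Adjusted over the 6 ratio tests run, each p stayed at 0.0286. Ccn1 thus rose more than Ccn2, and the change of Ankrd1 was below that of Ccn2, although without any 1 of the H/R libraries the p for Ankrd1 to Ccn2 was 0.0571.

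**Figure D2:**
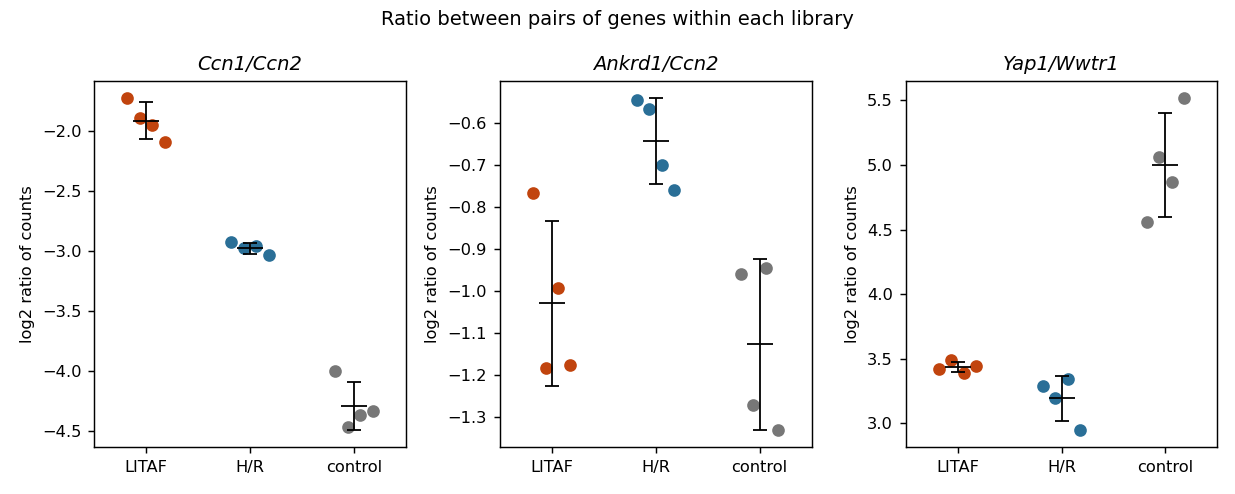
The log2 ratio of the counts of 2 genes in each library, by group, with bars for the mean and SD of 4 libraries. For Ccn1 over Ccn2 the LITAF libraries lie between -2.09 and -1.72, above the H/R libraries and the control libraries.

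Among the feedback genes, Lats2 (ENSRNOG00000056343) codes for the kinase that restrains YAP and is itself a YAP target. It stood at 348, 319, 364 and 346 CPM in the LITAF libraries and at 274, 258, 261 and 286 CPM in the H/R libraries. The groups did not overlap, but the change of log2 0.35 ± 0.11 (95% interval 0.13 to 0.57) missed the threshold at adjusted p = 0.0689 by edgeR's test. It passed in a fit of these 2 groups alone (adjusted p = 0.00853) and with DESeq2 (adjusted p = 0.0210). It also passed without control library 1 (adjusted p = 0.0346), control library 4 (0.0336) or LITAF library 1 (0.0492). Amotl2, whose angiomotin-like protein holds YAP in the cytoplasm, averaged 647 ± 36.1 CPM in LITAF libraries, against 651 ± 57.5 CPM in H/R libraries (SD, n = 4 per group). The interval of its change ran from -0.22 to 0.20 on the log2 scale (adjusted p = 0.974 by edgeR's test), and its sign turned positive with DESeq2 size factors and with no low-count filter. The groups overlapped for Amotl2.

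Ajuba, which codes for a LIM protein that binds and inhibits LATS kinases, stood at 253, 276, 257 and 252 CPM in the LITAF libraries and at 303, 292, 281 and 310 CPM in the H/R libraries. All 4 LITAF libraries were below all 4 H/R libraries. The change of log2 -0.19 ± 0.15 did not pass in the fit of 12 libraries (adjusted p = 0.505 by edgeR's test) or in that of the 2 groups alone (adjusted p = 0.0717). Axl, a receptor tyrosine kinase bound by the ligand Gas6, averaged 382 ± 17.0 CPM in LITAF libraries, against 385 ± 32.3 CPM in H/R libraries. Its interval ran from -0.25 to 0.22 on the log2 scale (adjusted p = 0.963 by edgeR's test).

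Of the effectors, Yap1 (ENSRNOG00000005933) stood at 346, 298, 311 and 313 CPM in the LITAF libraries and at 282, 275, 284 and 274 CPM in the H/R libraries. The groups did not overlap, yet the change of log2 0.18 ± 0.14 gave adjusted p = 0.513 by edgeR's test. The 12-library fit takes its spread from all groups, and the SD of Yap1 was 20.5 CPM for LITAF, 4.82 CPM for H/R and 103 CPM for control. In the fit of the 2 groups alone the adjusted p was 0.0844. Wwtr1 averaged 29.3 ± 2.39 CPM in LITAF libraries, against 30.6 ± 3.41 CPM in H/R libraries, with an interval of -0.31 to 0.18 on the log2 scale (adjusted p = 0.806 by edgeR's test). The log2 ratio of Yap1 to Wwtr1 was 0.24 higher in the LITAF group, without overlap (p = 0.0286 by the two-sided exact permutation test, adjusted p = 0.0286 over the 6 ratio tests). Without any 1 of the LITAF libraries this p was 0.0571.

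Tead1 (ENSRNOG00000015488) stood at 94.9, 55.9, 82.1 and 71.8 CPM in the LITAF libraries and at 68.0, 68.2, 67.4 and 73.4 CPM in the H/R libraries. The LITAF libraries thus lay on both sides of the H/R libraries, with libraries 1 and 3 above and library 2 below all of them. The change of log2 0.14 ± 0.15 did not pass (adjusted p = 0.657 by edgeR's test). Tead1, Wwtr1 and Litaf all ordered the LITAF libraries as 1, 3, 4 and 2 from high to low. Library 1 was also the highest and library 2 the lowest for many other Hippo genes looked at, such as Stk4, Lats1, Taok1, Amot, Vgll3 and Myof. For Ccn1 library 2 was the highest and library 1 the lowest. The share of all genes with either order was not counted, and a link to Litaf was not tested. The coefficient of variation of Tead1 was 21.6% in the LITAF group and 4.01% in the H/R group.

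**Figure D3:**
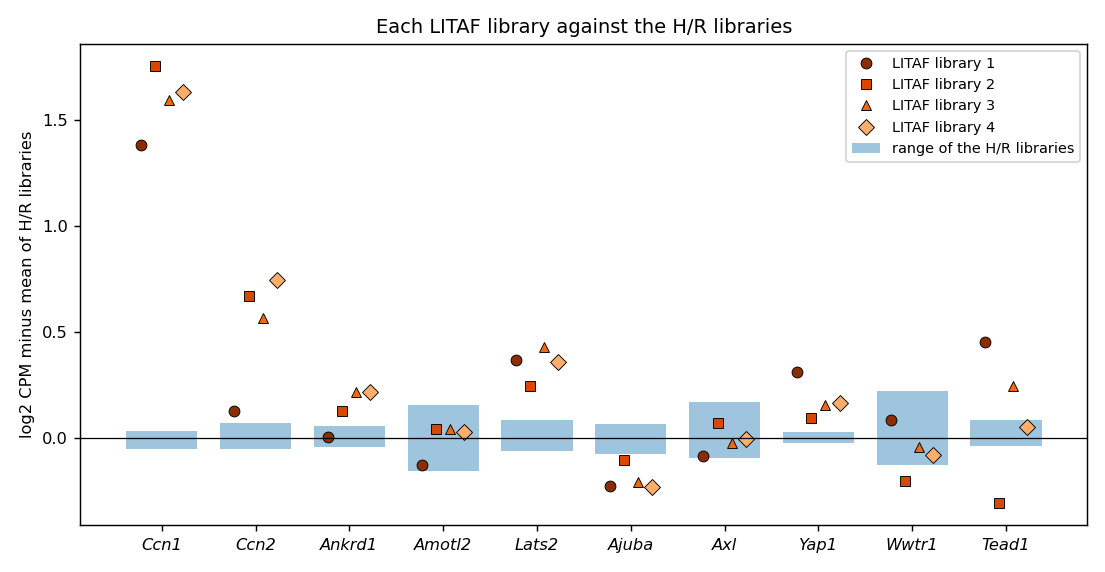
The log2 CPM of each gene in each LITAF library minus the mean of the 4 H/R libraries, with the range of the H/R libraries shaded. Ccn1 lies 1.38 to 1.76 above the H/R mean in all LITAF libraries, while Ccn2 is 0.13 above it in library 1 and 0.57 to 0.75 above it in the others.

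Within the LITAF group, library 1 was the lowest for 5 of the 10 genes (Ccn1, Ccn2, Ankrd1, Amotl2 and Axl) and the highest for 3 (Yap1, Wwtr1 and Tead1). Library 1 was also the library with the most Litaf reads. Over all genes of at least 10 CPM the median coefficient of variation was 10.5% in the LITAF group, 6.14% in the H/R group and 15.0% in the control group. For the 10 genes the medians were 6.64%, 4.14% and 15.0% in the LITAF, H/R and control groups.

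H/R against control describes low oxygen, reoxygenation and the empty vector together. Unless a block is named, the p-values per gene came from a fit that treats libraries as independent. Same-numbered H/R and control libraries, however, deviated together (correlations across genes 0.302 to 0.568). With the replicate number as a block, 7 of the 10 genes passed in the 12-library fit, beside 7564 of all 11398 genes. In the fit of the 2 groups 8 passed, beside 8032 of 11239. Most of the targets fell: Ccn2 2.89-fold, Ankrd1 2.05-fold, Lats2 1.68-fold and Axl 1.31-fold, and Yap1 fell 1.40-fold. Wwtr1 rose 2.57-fold and Ajuba 1.79-fold, while Ccn1, Amotl2 and Tead1 did not pass. In all 5 of the 10 genes fell and 2 rose, a share of 7 in 10 that has to be read against the 63.6% of all genes tested that passed, 31.8% in each direction. CPM did not overlap for 6 of the 10 genes, against 58.6% of all genes. The median change of the 10 genes was log2 -0.37, against 0.01 over all genes. H/R columns held 11.4 to 12.4% of values that were not whole numbers and control columns 2.84 to 3.40%, so any difference in counting between these columns cannot be told apart from the groups. Of the 7 muscle markers tested 4 fell and 2 rose, and of the 4 fibroblast markers Col1a1 and Col1a2 fell and none rose, and their part in these results was not tested. In bulk RNA, fewer cells of a type and less RNA per cell cannot be told apart.

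**Figure D4:**
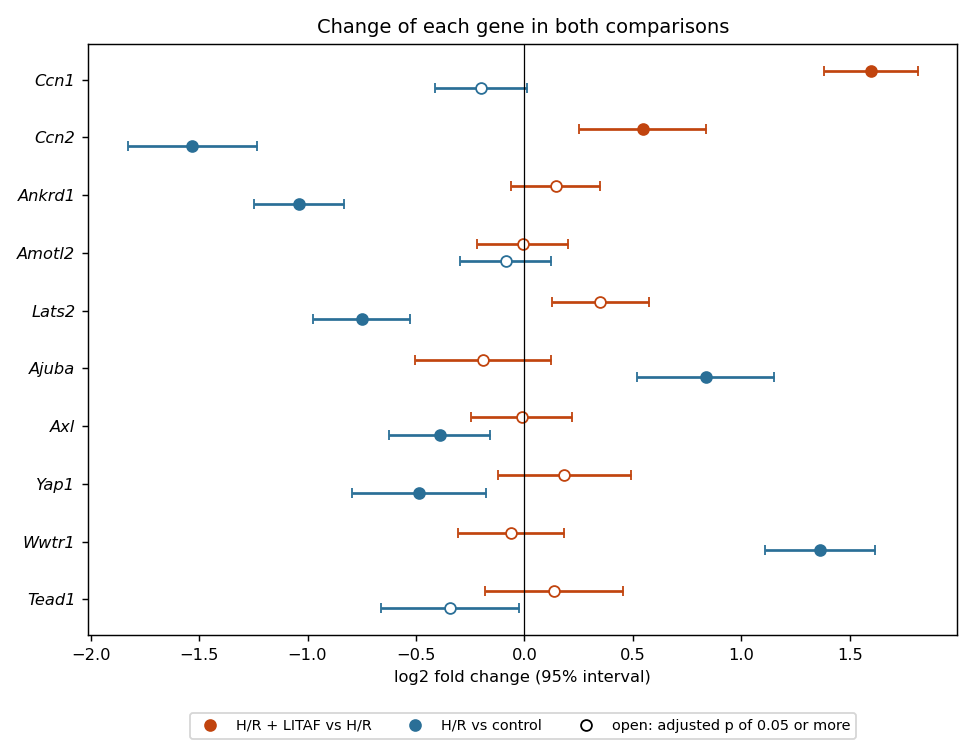
The log2 fold change of each gene with its 95% interval in the LITAF group against the H/R group (orange) and in the H/R group against the control group (blue), filled where the adjusted p was under 0.05. Ccn2 is at 0.55 in the first and at -1.53 in the second, and Ccn1 at 1.60 and -0.20.

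Ccn2 stood at 2233, 2219, 2328 and 2415 CPM in the H/R libraries and at 5068, 7106, 6633 and 7768 CPM in the control libraries. All H/R libraries were far below all control libraries, by log2 -1.53 ± 0.14, adjusted p = 9.62e-08 by edgeR's test. Ankrd1 stood at 1529, 1497, 1431 and 1427 CPM in the H/R libraries and at 2606, 2946, 3446 and 3088 CPM in the control libraries, also without overlap (log2 -1.04 ± 0.10, adjusted p = 1.25e-07). Lats2 averaged 269.9 ± 12.7 CPM in H/R libraries, against 454 ± 67.1 CPM in control libraries (SD, n = 4 per group), log2 -0.75 ± 0.11, adjusted p = 1.20e-05 by edgeR's test.

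Ccn1 averaged 292 ± 7.30 CPM in H/R libraries, against 335 ± 33.4 CPM in control libraries. Every H/R library was below every control library, but the change of log2 -0.20 ± 0.10 (95% interval -0.41 to 0.01) did not pass, at adjusted p = 0.0883 by edgeR's test. The log2 ratio of Ccn1 to Ccn2 was -2.98 ± 0.05 in the H/R libraries and -4.30 ± 0.20 in the control group, a difference of 1.32 with no overlap. That of Ankrd1 to Ccn2 was 0.48 higher in the H/R group, again with no overlap. Each had p = 0.0286 by the two-sided exact permutation test of unpaired libraries, and 0.0286 adjusted over the 6 ratio tests. Same-numbered H/R and control libraries deviated together, and an exact sign-flip test of the 4 pairs gave p = 0.125 for each, which misses the threshold and is the smallest p that 4 pairs allow.

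The coactivator genes moved in opposite directions. Wwtr1 (ENSRNOG00000016617) stood at 28.9, 30.0, 27.9 and 35.5 CPM in the H/R libraries and at 11.7, 13.8, 11.3 and 10.7 CPM in the control libraries. All H/R libraries were above all control libraries, log2 1.36 ± 0.12, adjusted p = 5.57e-08 by edgeR's test. These values rest on 523 to 633 reads per H/R library and 198 to 249 per control library. Yap1 stood at 282, 275, 284 and 274 CPM in the H/R libraries and at 276, 463, 331 and 492 CPM in the control libraries. Control library 1 lay within the range of the H/R libraries and the other control libraries above it. The change was log2 -0.49 ± 0.15, adjusted p = 0.00796 by edgeR's test. The log2 ratio of Yap1 to Wwtr1 was 3.19 ± 0.18 in the H/R group and 5.00 ± 0.40 in the control group, a difference of -1.81 without overlap (p = 0.0286 by the two-sided exact permutation test, 0.0286 adjusted over the 6 ratio tests, and 0.125 by the exact sign-flip test of pairs).

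Ajuba stood at 303, 292, 281 and 310 CPM in the H/R libraries and at 200.4, 149.7, 110.6 and 203.5 CPM in the control libraries. All H/R libraries were higher, log2 0.84 ± 0.15, adjusted p = 0.000127 by edgeR's test. Axl averaged 385 ± 32.3 CPM in H/R libraries, against 504 ± 77.0 CPM in control libraries. Its ranges overlapped, since H/R library 4 (432 CPM) was above control library 2 (424 CPM), and its change of log2 -0.39 ± 0.11 had adjusted p = 0.00549. Tead1 averaged 69.2 ± 2.77 CPM in H/R libraries, against 87.9 ± 15.6 CPM in control libraries. Its log2 -0.34 ± 0.15 missed the threshold at adjusted p = 0.0556, and passed in a fit of these 2 groups alone without (adjusted p = 0.0248) and with the replicate number as a block (adjusted p = 0.0176). In the 12-library fit with the block it did not pass (adjusted p = 0.0642). It passed without control library 3 (adjusted p = 0.0127), LITAF library 1 (0.0304) or LITAF library 2 (0.0249), and with DESeq2 (0.0339). Amotl2 averaged 651 ± 57.5 CPM in H/R libraries, against 691 ± 70.7 CPM in control libraries, and its sign turned positive under upper-quartile scaling and under library totals alone.

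Between the LITAF group and the control group, Ccn1 was higher (log2 1.40 ± 0.10), as were Wwtr1 (log2 1.30 ± 0.12) and Ajuba (log2 0.64 ± 0.15). Ccn2 (log2 -0.99 ± 0.14), Ankrd1 (log2 -0.89 ± 0.10), Lats2 (log2 -0.40 ± 0.11) and Axl (log2 -0.40 ± 0.11) were lower. The other 3, Yap1, Tead1 and Amotl2, did not pass by edgeR's test, and Yap1 passed without control library 1 (log2 -0.44) or control library 3 (log2 -0.36). These 7 calls, 3 higher and 4 lower, stand beside 64.6% of all genes tested, 32% higher and 32.6% lower. CPM did not overlap for 7 of the 10 genes, against 52.1% of all genes, and this comparison shares its libraries with the other 2. It joins LITAF, H/R and the vector. LITAF columns held 11.9 to 12.6% of values that were not whole numbers and control columns 2.84 to 3.40%. Any difference in counting between these columns cannot be told apart from the groups. Ccn2 in the LITAF group, at 3355 ± 593 CPM, thus lay between the H/R group at 2299 ± 91.3 CPM and the control group at 6644 ± 1149 CPM, with no overlap between any of them. Ordered by level, Ccn1 ran LITAF group, control group, H/R group, and the H/R and control groups did not pass the test of their difference. Lats2 and Ankrd1 ran control group, LITAF group, H/R group, and for Ankrd1 the LITAF and H/R groups overlapped. For neither gene did the LITAF and H/R groups pass the test of their difference (adjusted p = 0.0689 for Lats2 and 0.435 for Ankrd1 by edgeR's test).

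The rest of the pathway was described from lists of other Hippo genes. Of 15 tested other genes known as YAP or TAZ targets in human cells, 2 rose in the LITAF group against the H/R group and none fell, beside 3.73% of all genes tested that rose and 1.15% that fell. These were F3, the gene of tissue factor, which starts coagulation (414 ± 39.9 CPM in LITAF libraries, against 298 ± 6.98 CPM in H/R libraries, log2 0.47 ± 0.11, adjusted p = 0.0190) and the phosphatase gene Ptpn14, whose product binds YAP (259 ± 9.23 and 188 ± 2.19 CPM in the LITAF and H/R groups, log2 0.46 ± 0.13, adjusted p = 0.0497), both by edgeR's test. Their median was log2 0.13, against -0.01 over all genes tested and 0.14 for the 10 genes. With library totals alone or upper-quartile scaling 1 of the 15 passed, at an adjusted p under 0.01 none, and with 1 library left out 0 to 3. None passed without H/R library 1, 2 or 3 or without LITAF library 3 or 4, and 1 passed without H/R library 4 or LITAF library 2.

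Of 9 tested upstream regulators and scaffolds, 2 rose in the LITAF group against the H/R group and none fell, with a median of log2 0.22, beside the same 3.73% and 1.15% of all genes. In the fit of these 2 groups alone 4 of the 9 rose, beside 776 of all 11226 genes tested in that fit. At an adjusted p under 0.01 in the 12-library fit 1 of the 9 rose, beside 163 of all 11398 genes. Fat4, a giant cadherin, stood at 17.2 ± 2.92 CPM in LITAF libraries, against 10.1 ± 1.29 CPM in H/R libraries (log2 0.76 ± 0.14, adjusted p = 0.00508). Frmd6, which codes for a FERM-domain activator of the kinases, stood at 175 ± 9.65 CPM in LITAF libraries, against 128 ± 3.24 CPM in H/R libraries (log2 0.46 ± 0.09, adjusted p = 0.0105). Of the 10 kinase-module genes none passed by edgeR's test, nor by DESeq2, and 1 had an unadjusted p under 0.05. Of the 5 tested TEAD and VGLL genes none passed in the 12-library fit or with DESeq2, and 2 had an unadjusted p under 0.05. In the fit of the 2 groups alone 1 of them rose, beside 776 of all 11226 genes. Without LITAF library 1, 1 of them fell, beside 593 of all 11515 genes. Of 6 tested relatives of the CCN, ankyrin repeat and Axl families none passed by edgeR's test in the 12-library fit, and 2 had an unadjusted p under 0.05. With DESeq2, with the replicate block in 12 libraries, and without LITAF library 1 or 2, 1 of the 6 rose. Of all genes, 627 rose with DESeq2, 574 with the block and 692 without LITAF library 1, and 244 to 1285 were called with 1 library left out.

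**Figure D5:**
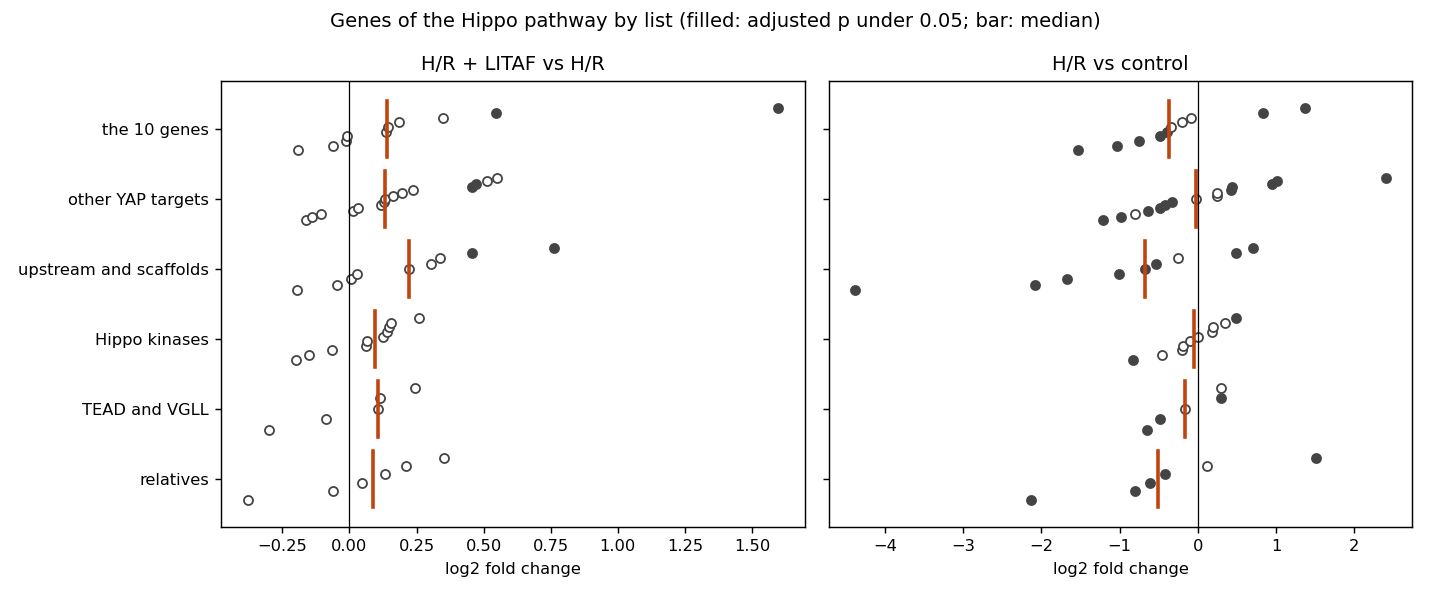
The log2 fold change of every tested gene by list, in the LITAF group against the H/R group and in the H/R group against the control group, filled where the adjusted p was under 0.05, with a bar at each list's median. On the left, 2 genes are filled in each of the top 3 lists and none in the others, and on the right Fat4 is the lowest at -4.38.

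In the H/R group against the control group 63.6% of all genes tested passed, 31.8% in each direction, and the counts of every list have to be read against that. Of the 9 upstream genes 6 fell and 2 rose, with a median of log2 -0.67, against 0.01 over all genes tested. Fat4 stood at 10.1 ± 1.29 CPM in H/R libraries, against 211 ± 23.9 CPM in control libraries, log2 -4.38 ± 0.15. Nf2, the gene of merlin, which recruits LATS to the membrane, stood at 106 ± 3.36 CPM in H/R libraries, against 337 ± 58.6 CPM in control libraries (log2 -1.67 ± 0.11). The angiomotin gene Amot fell by 2.09, Fat1 by 1.00, Frmd6 by 0.67 and the Ajuba relative Limd1 by 0.54 on the log2 scale. The 2 that rose were Wtip (log2 0.71 ± 0.14) and Wwc2 (log2 0.49 ± 0.11). Of the 10 kinase-module genes, 1 rose, Stk4, which codes for MST1 (log2 0.48 ± 0.12), and 1 fell, the cofactor gene Mob1b (log2 -0.83 ± 0.25). With the replicate number as a block in the fit of these 2 groups, 2 of the 10 rose and 2 fell. In that fit 4053 of all 11239 genes rose and 3979 fell. The upstream and kinase genes named had adjusted p from 2.51e-12 to 0.00797 in the 12-library fit by edgeR's test.

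Among the TEAD and VGLL genes, Tead4 (log2 -0.65 ± 0.10) and Vgll3 (log2 -0.48 ± 0.11) fell in the H/R group against the control group and Vgll4, a competitor of YAP for TEAD, rose (log2 0.30 ± 0.09). Of the 15 other YAP targets 5 rose and 6 fell, with a median of log2 -0.03, beside the 63.6% of all genes that passed. Gadd45a, a stress-induced gene of growth arrest, rose most (342 ± 17.0 CPM in H/R libraries, against 64.7 ± 15.5 CPM in control libraries, log2 2.40 ± 0.18), and Ccdc80 and Rbms3 rose by log2 1.01 and 0.95. The membrane repair gene Myof (log2 -1.21 ± 0.10), the growth factor gene Tgfb2 (log2 -0.99 ± 0.10) and Arhgef17 (log2 -0.63 ± 0.10) fell.

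Relatives of the 10 genes did not all move with them. Ccn4 fell by log2 0.80 in the H/R group against the control group, while Ccn5, a CCN protein that lacks the C-terminal domain, rose by log2 1.52 (19.0 ± 1.70 CPM in H/R libraries, against 6.64 ± 1.83 CPM in control libraries). Gas6, the ligand of Axl, stood at 397 ± 17.1 CPM in H/R libraries, against 1744 ± 173 CPM in control libraries (log2 -2.14 ± 0.10), and Tyro3 and Pros1, a receptor and a ligand of the same family, fell by log2 0.61 and 0.42. Pros1 did not pass without control library 3 (log2 -0.24), nor under library totals or upper-quartile scaling (log2 -0.30 in both). The TEAD, target and relative genes named for H/R against control had adjusted p of at most 0.0211 by edgeR's test. Ccn6, Ankrd2 and Mertk had too few reads to be tested.

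Genes with the most similar profile were sought over the 12 libraries by the root mean square difference in log2 CPM, each gene centred on its mean, among 9714 candidates of at least log2 CPM 2. Nearest to Ccn1 were Efnb1 (0.18), Arc (0.20), Depp1 (0.25), Dusp6 (0.26) and Junb (0.29), with changes of log2 1.16 to 1.60 in the LITAF group against the H/R group. Likeness was taken over these same libraries, so that changes near those of the gene they were matched to follow from the choice. Nearest to Ccn2 were Nhsl1 (0.16), Adgra3 (0.16), Adamtsl4 (0.16), Pdk2 (0.18) and C1rl (0.18), with changes of log2 0.31 to 0.49 in that comparison. Nearest to Ankrd1 were Fbxo10, Vav2, Camkk2, Tubgcp3 and Naa40, at 0.11 each. No other of the 10 genes was among these 15.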

How the data were processed

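Per the file headers, the authors deposited raw estimated counts of reads per gene with Ensembl rat IDs, not normalized. The submitters' processing notes name DESeq2 and edgeR. No source used here gives the aligner, counter, build or strand use, so overlapping genes and close relatives are uncertain. Of 16204 rows, 56 repeated IDs with identical rows were kept once and 72 IDs whose rows differed were left out, which left 16002. None of the 10 genes was repeated. Counts were rounded. filterByExpr left 11398 genes, TMM scaled the libraries, and edgeR 4.0.16 (R 4.3.3, limma 3.58.1) fitted all 12 libraries with a mean per group. The quasi-likelihood F-test was two-sided, with Benjamini-Hochberg adjustment over all genes and a threshold of 0.05. SEs were derived from the fold change and F (|log2 change| over the root of F). The fit was tested on simulated data. Ratios used counts plus 0.5.

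The 10 genes, the lists and the naming rule (in each list, up to 6 genes per comparison past the threshold, by p) were chosen with earlier results of these data known, and the marker lists too. Wtip and Wwc2 lie beyond that rule and were not followed as single genes through the alternatives. Same-numbered H/R and control libraries deviated together (correlations across genes 0.302 to 0.568), which pairs them by the data, not by the labels. The same correlations were 0.0543 to 0.197 for LITAF and H/R libraries and 0.0487 to 0.100 for LITAF and control libraries, which were therefore not treated as paired. Alternatives were other scalings, no filter, DESeq2 1.42.0, the 2 groups alone, the replicate block, repeated IDs kept, a threshold of 0.01 and each library left out.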

Additional observations from a re-analysis of the deposited data

Results flagged for a closer look

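In 3 of the 33 sets of 4 libraries (10 genes and Litaf in 3 groups), 1 library lay apart from the other 3 by more than Dixon's 95% critical value, which chance gives in about 1 of 20 sets. Amotl2 in LITAF library 1 was at 593 CPM, against 661 to 667 CPM in the other LITAF libraries. Tead1 in H/R library 4 was at 73.4 CPM, against 67.4 to 68.2 CPM in the others. Ccn1 in control library 4 was at 385 CPM, against 316 to 320 CPM in the other control libraries.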

How the results depend on the processing

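Ccn1 and Litaf kept their calls in the LITAF group against the H/R group under every alternative, Ccn1 at log2 1.53 to 1.68. For that comparison 2 of the 10 genes passed, 1 with library totals alone and 1 at an adjusted p under 0.01, and 1 to 3 with 1 library left out. The genes called over the whole table numbered 556 (76.4% higher), 902 with DESeq2, 1098 in the fit of the 2 groups alone, 873 and 887 with the replicate block in the fits of 12 libraries and of these 2 groups, 182 at 0.01, and 244 to 1285 with 1 library left out. Higher calls made up 61.0% with library totals alone, 65.8% with the block and 53.9% without LITAF library 1 (the 1285). The lowest count, 244, was without H/R library 3 and again without LITAF library 4. Against control, 7 or 8 of the 10 genes passed in both comparisons under every alternative. These counts have to be read against those over all genes. For H/R against control these ran from 5976 of 11398 genes at 0.01 to 8032 of 11239 with the block in the 2 groups. For LITAF against control they ran from 6094 at 0.01 to 7672 with the block in 12 libraries, both of 11398. With library totals alone and upper-quartile scaling, the median of all genes for the H/R group against control lay at log2 0.13 and 0.12, and higher calls made up 59.0% and 58.1%, against 49.9% with TMM. The sign changed for genes near 0. Amotl2 in LITAF against H/R stood at log2 0.00039 with DESeq2 size factors, 0.00040 with DESeq2, 0.00084 without the filter, and 0.0034, 0.059 and 0.052 without control library 3, H/R library 4 and LITAF library 1. It ran from -0.058 to 0.059 with 1 library left out. Against control it was 0.042 (H/R, library totals) and 0.030 and 0.0094 (H/R and LITAF, upper quartile). Axl in LITAF against H/R was 0.060 and 0.032 without H/R library 4 and LITAF library 1 (-0.048 to 0.060 over all libraries left out), and Wwtr1 0.027 without H/R library 4 (-0.105 to 0.027). Of the other genes named for LITAF against H/R, F3 passed in 17, Ptpn14 in 13, Frmd6 in 22 and Fat4 in all 23 of 23 alternatives. For H/R against control Pros1 passed in 19 and Vgll4 in 22.

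With same-numbered libraries paired (replicate block), the ratio differences were the same 1.06, 1.32, -0.39, 0.48, 0.24 and -1.81, with p = 0.125 by an exact sign-flip test, the smallest p that 4 pairs allow. With 1 library left out they ran from 1.00 to 1.12 and 1.26 to 1.42 (Ccn1/Ccn2), -0.47 to -0.33 and 0.41 to 0.54 (Ankrd1/Ccn2), and 0.16 to 0.29 and -1.96 to -1.64 (Yap1/Wwtr1), for LITAF against H/R and H/R against control in turn. The cause of the changes was not tested. The lowest count among the 10 genes was 198 reads, and the part of depth in the calls missed was not tested.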
